A study of Caenorhabditis elegans with 3 samples.

Results

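Cyclins are the regulatory subunits that switch on cyclin-dependent kinases (CDKs), and the genes described here are those of the worm's core cell cycle engine: 7 cyclin genes (cyb-1, cyb-2.1, cyb-2.2, cyb-3, cyd-1, cye-1 and cya-1) and 3 kinase genes (cdk-1, cdk-2 and cdk-4), 10 in all. A gene entered the description if the array carried a probe annotated with its symbol and no other, with a value on all 3 arrays. This held for 8 of the 10, each by 1 probe, among 19264 genes or unnamed probes measured in the same way (15081 of them named genes). The B-type cyclins cyb-2.1 and cyb-2.2 have no probe of their own, because 1 probe is annotated with both, and they are not reported further.

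The RNA came from late young adult hermaphrodites of Caenorhabditis elegans, a free-living nematode, in 3 preparations, each on 1 array against the same kind of reference, a wild-type mixed mRNA. The labels give no genotype or treatment for the adults, do not say what the reference mixed, and do not say whether the preparations came from separate cultures, so the p-values reflect only how these preparations varied, and that variation may be technical. Each value is the log2 of the ratio of the array's 2 channels. Its direction is not stated; adult over reference is taken as likely, since channel 2 is where the labels put the adult RNA, and with the other direction every "higher" would read "lower". A ratio compares shares of the RNA, so a higher share of cells that use a gene and more of its RNA per cell cannot be told apart. The deposited table holds no spot brightness, so faint spots cannot be recognised, and the number of arrays limits the precision.

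Cyclins D and E with their kinases drive cells from G1 into DNA synthesis, cyclin A is known for S phase and G2 in animals, and B-type cyclins with CDK1 drive entry into mitosis and meiosis. Most somatic cells of the adult worm no longer divide. The germ line is the tissue that keeps cycling: stem cells divide mitotically at the distal end of the gonad, and growing oocytes are stocked with the RNA and protein that run the rapid cleavages of the embryo.

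Against that background, 3 of the 8 measured genes were higher in the adult RNA and 0 were lower, beside 38.4% of all features called in either direction. The B-type cyclin cyb-3 lay 3.58-fold above the reference, the E-type cyclin cye-1 2.06-fold and the mitotic kinase cdk-1 1.76-fold. The other B-type cyclin with its own probe, cyb-1, the G1 pair cyd-1 and cdk-4, the A-type cyclin cya-1 and the S phase kinase cdk-2 did not pass the threshold, a limma p of 0.05 after Benjamini-Hochberg adjustment over all 19264 features. Split by direction, 19.6% of all features were called higher and 18.8% lower. The median mean log2 ratio of the 8 genes was 0.12, with array medians of 0.10, 0.21 and 0.07, against 0.04 over all features. The list as a whole therefore lay near the centre of the array, and its counts were not tested against other genes.

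**Figure D1:**
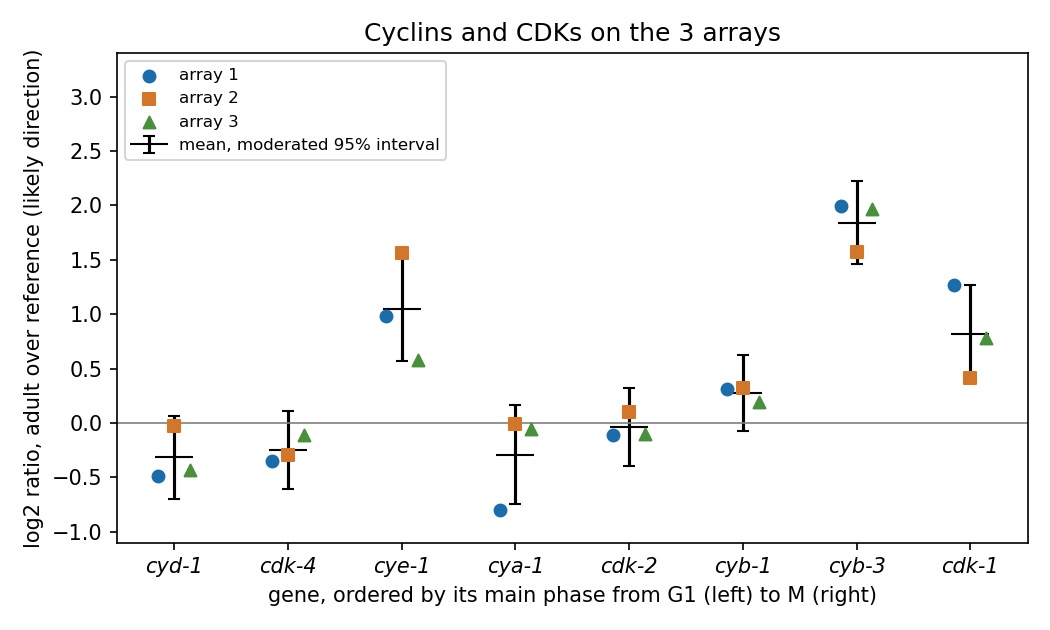
Log2 ratio of each measured cyclin or CDK gene on arrays 1, 2 and 3 (coloured symbols), with the mean (black dash) and limma's moderated 95% confidence interval (bars), genes ordered by the phase they are best known for. The intervals of cye-1, cyb-3 and cdk-1 lie above 0, and the other 5 include 0.

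The 3 arrays were not equally alike. Across features, arrays 2 and 3 correlated at r = 0.900, and array 1 correlated with them at 0.763 and 0.773 (genes are not independent replicates). The array labels carry different dates, so an effect of the day and one of the preparation cannot be told apart. Lists of marker genes were also examined. They were drawn up with results of these arrays known, so they do not test the label or the direction of the ratio. Germ cell markers were higher in 5 of 5 genes (median log2 ratio 2.03) and oocyte markers in 5 of 5 (2.32). Among them were the germline helicase glh-1 at 2.89 and the eggshell gene cpg-1 at 2.48. The adult cuticle collagen col-19 lay at 2.75 and the yolk protein gene vit-2 at 1.28, whereas vit-5 lay at 0.16 and was not called. Larval moult markers were lower in 5 of 6 genes (median −2.08), and 0 of 3 male markers were called. Among all features, 19.6% were called higher and 18.8% lower. Of 6 sperm markers 2 were higher, the sperm phosphatase genes gsp-3 and gsp-4. Of 6 measured genes on the list of embryo markers, 0 were higher and 2 lower, med-1 at −0.65 and hlh-1 at −0.81. The means of 3 of the 6 lay above 0, without passing. The means of the germ cell and oocyte markers and of the 3 higher cell cycle genes thus all lay above 0. Which array was highest differed from gene to gene. Array medians were 1.97, 2.00 and 2.31 for germ cell markers and 2.17, 2.32 and 2.35 for oocyte markers. Single markers varied: pgl-1, cbd-1 and puf-5 were highest on array 1, and the other germ cell and oocyte markers on array 3. Of the higher cell cycle genes, cyb-3 and cdk-1 were highest on array 1 and cye-1 on array 2. The part of germ cells and oocytes in those values was not tested.

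Among the B-type cyclins, cyb-3 stood highest of the 8 genes. This cyclin is known in worm embryos for its roles in mitotic timing and sister chromatid separation. Its log2 ratios were 1.99, 1.57 and 1.96 on arrays 1, 2 and 3, all 3 far above 0. The mean was 1.84 ± 0.24 (SD, n = 3), with a moderated 95% interval of 1.46 to 2.22 and a limma adjusted p of 0.000148. Of all measured features, 98.8% had the same or a lower mean log2 ratio. Its paralogue cyb-1, which is known for chromosome congression in the embryo, gave 0.31, 0.32 and 0.19. These values were close together and all above 0, and their mean of 0.27 ± 0.07 (SD, n = 3) did not pass by limma (adjusted p = 0.198; interval −0.08 to 0.63). Taken as a fold, the interval of cyb-1 reached from 0.948 to 1.54, so an excess up to the upper bound lies within the error. Below 0 on all 3 arrays lay 30.1% of all features and above 0 on all 3 lay 33.7%, so the shared sign of cyb-1 is common on these arrays.

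The mitotic kinase cdk-1, the partner of the B-type cyclins that is also needed for meiotic maturation of oocytes, lay at 1.27, 0.41 and 0.78. All 3 arrays were above 0, with array 1 the highest and array 2 the lowest. The mean log2 ratio was 0.82 ± 0.43 (SD, n = 3; interval 0.37 to 1.27; limma adjusted p = 0.0112). With array 1 left out it was 0.59 and with array 2 left out 1.02, and the call was kept each time.

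The cyclin of S phase entry, cye-1, which with CDK-2 promotes proliferation of germ cells in the worm, showed log2 ratios of 0.98, 1.57 and 0.58. It was also above 0 on all 3 arrays, but here array 2 was the highest. The mean was 1.04 ± 0.49 (SD, n = 3; interval 0.57 to 1.52; limma adjusted p = 0.00483), the widest spread among the 8 genes. Its kinase cdk-2 did not share this position. It gave −0.11, 0.10 and −0.11, on both sides of 0, with a mean of −0.04 ± 0.12 (SD, n = 3; interval −0.40 to 0.32; limma adjusted p = 0.867). The interval leaves room for a ratio between 0.760 and 1.25, which excludes the 2.06-fold of cye-1.

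The other cyclin that can pair with CDK2 in animals, the A-type cyclin cya-1, lay at −0.80 on array 1 and at −0.01 and −0.06 on arrays 2 and 3. Array 1 alone was well below 0. The mean of −0.29 ± 0.44 (SD, n = 3) did not pass (limma adjusted p = 0.287), and without array 1 it was −0.04.

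The G1 pair lay slightly below 0 without passing. In worms cyd-1 and cdk-4 are known for the G1 progression of postembryonic cell divisions. The D-type cyclin cyd-1 gave −0.49, −0.03 and −0.43, with a mean log2 ratio of −0.32 ± 0.25 (SD, n = 3; limma adjusted p = 0.175). For cdk-4 the values were −0.35, −0.29 and −0.11, with a mean of −0.25 ± 0.13 (SD, n = 3; limma adjusted p = 0.247). Both were below 0 on every array. Their intervals, −0.70 to 0.07 and −0.61 to 0.11, exclude any excess as large as the 1.76-fold of cdk-1.

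**Figure D2:**
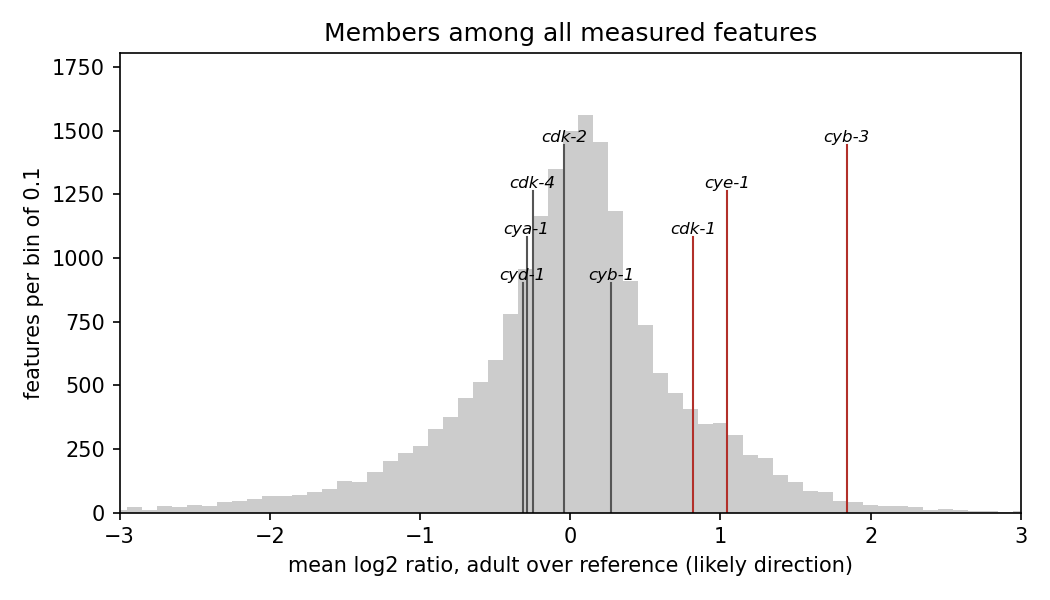
Histogram of the mean log2 ratio of all 19264 features (grey, bins of 0.1, drawn from −3 to 3), with the 8 measured cyclin and CDK genes as vertical lines (red for those called higher, dark grey for those not called; line height carries no value). cyb-3 lies in the upper tail, cye-1 and cdk-1 on the upper shoulder, and the other 5 within the central mass.

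In order of mean log2 ratio the genes ran cyb-3, cye-1, cdk-1, cyb-1, cdk-2, cdk-4, cya-1 and cyd-1. Each gene's moderated interval overlapped that of its neighbour in this order, but the genes share their arrays, so the difference within each array bears more directly on the order. In 3 of the 7 neighbouring pairs (cye-1 and cdk-1, cdk-4 and cya-1, cya-1 and cyd-1) the order turned on at least 1 array, and the mean difference was smaller than its SD. cyb-1 lay above cdk-2 by 0.42, 0.22 and 0.30 on the 3 arrays, a mean of 0.31 ± 0.10 (SD, n = 3), the only neighbours more than 2 SD apart. The remaining 3 pairs kept their order on all 3 arrays, but with a smallest difference of 0.09 or less. These neighbouring differences are a description, with no test. Some genes further apart had intervals that did not overlap: the interval of cyb-3 lay wholly above that of cdk-1, and those of cyb-3 and cye-1 lay wholly above that of cdk-2.

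Known partners, paralogues and the kinases of different phases were then set against each other within each array, as differences of log2 ratios. Of 10 planned pairs 9 could be formed, since cyb-2.1 and cyb-2.2 have no value of their own. With 3 arrays the exact two-sided sign-flip permutation test cannot give a p below 0.25, so no pair could pass, and the sizes and directions are given as a description. In 7 of the 9 pairs all 3 arrays went the same way, each with the smallest p the exact test allows, 0.25 (0.321 after Benjamini-Hochberg adjustment over the 9). Most of the genes occur in several pairs, so these agreements are not independent of each other.

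The paralogues cyb-1 and cyb-3 were furthest apart. cyb-1 minus cyb-3 was −1.68, −1.25 and −1.77 on the 3 arrays, a mean of −1.57 ± 0.28 (SD, n = 3), that is a 2.96-fold smaller ratio for cyb-1. Relative to their kinase, the B-type cyclins lay on opposite sides. cyb-3 minus cdk-1 was 1.02 ± 0.26 and cyb-1 minus cdk-1 was −0.54 ± 0.44, the latter with −0.09 on array 2 and a mean of −0.34 without array 1. The cyclins of G1 and of S phase entry also parted, with cyd-1 minus cye-1 at −1.36 ± 0.31. cye-1 exceeded its own kinase cdk-2 by 1.08 ± 0.39, and between kinases cdk-1 exceeded cdk-2 by 0.86 ± 0.53 and cdk-4 by 1.07 ± 0.49 (each SD, n = 3).

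In the other pairs the arrays did not share a sign. cyd-1 minus cdk-4 was −0.07 ± 0.30 (SD, n = 3; exact p = 0.75) with values of −0.13, 0.26 and −0.33, and without array 3 its mean was 0.06, the opposite sign. cya-1 minus cdk-2 was −0.25 ± 0.39 (SD, n = 3; exact p = 0.5) with values of −0.69, −0.11 and 0.05, and its mean was −0.03 without array 1. This does not show that the partners had equal ratios.

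**Figure D3:**
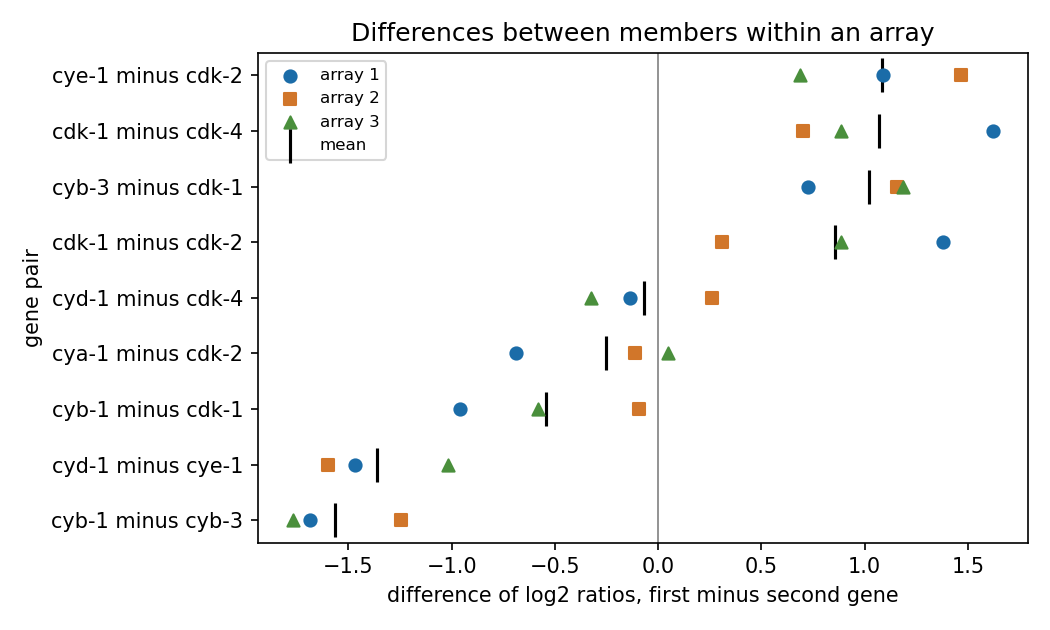
Difference of the log2 ratios of 2 genes on each array (coloured symbols) and their mean (black bar), first minus second gene, for the 9 pairs that could be formed. All 3 arrays lie on 1 side of 0 except for cyd-1 minus cdk-4 and cya-1 minus cdk-2.

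The direct regulators of these kinases went both ways. Of 2 inhibitor genes of the CIP/KIP class, cki-1, known for holding larval precursor cells in quiescence, was lower at log2 ratios of −0.94, −1.56 and −1.28. Its mean was −1.26 ± 0.31 (SD, n = 3; limma adjusted p = 0.000908), the opposite direction to its paralogue cki-2. That gene was higher at 0.96, 0.76 and 0.91, a mean of 0.87 ± 0.10 (SD, n = 3; limma adjusted p = 0.00275). On every array cki-2 lay above 0 and cki-1 below it. The CDK-binding subunit gene cks-1 lay at 0.43 ± 0.19 and was not called (limma adjusted p = 0.0661), but it was called with array weights (adjusted p = 0.0406).

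Of 6 measured genes for the kinases and phosphatases that set and remove inhibitory phosphate on CDKs, 2 were higher and 0 lower. Over all features, 19.6% were called higher and 18.8% lower. The Myt1-like kinase gene wee-1.3, known for keeping CDK-1 inactive in growing oocytes, lay at log2 ratios of 1.74, 1.79 and 1.53, a mean of 1.69 ± 0.14. The phosphatase gene cdc-25.1, of the family that opposes such kinases and needed for germline proliferation, lay at 1.63, 1.77 and 1.63, a mean of 1.68 ± 0.08. On every array both of these enzymes of opposite action lay above 1.5. Of 3 measured genes of the retinoblastoma and E2F group, which governs transcription at the G1 to S transition, 2 were higher. The E2F gene efl-1 lay at 0.82 ± 0.22 and the retinoblastoma gene lin-35 at 0.64 ± 0.23, the latter not called without array 2 (adjusted p = 0.0666). The dimerization partner gene dpl-1 lay at 0.27 ± 0.19 and was not called.

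Cyclin destruction genes included higher members and 0 lower ones; over all features 19.6% were called higher and 18.8% lower. Of 10 measured genes of the anaphase-promoting complex and its activators, the ubiquitin ligase that destroys B-type cyclins at anaphase, 5 were higher. The activator gene fzy-1, the worm Cdc20, led at 1.45 ± 0.12, followed by the subunit genes mat-3 at 0.89 ± 0.21 and emb-27 at 0.87 ± 0.12. Of 8 measured genes of cullin ligases known from the cell cycle, 6 were higher, led by the F-box gene sel-10 at 1.27 ± 0.35, the scaffold gene cul-1 at 1.23 ± 0.21 and zyg-11, a substrate receptor of CUL-2, at 0.71 ± 0.15. With 1 array left out this count of 6 fell to between 3 and 5, and it was 3 without array 3.

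Downstream and parallel to the CDKs, 6 of 7 measured genes of replication initiation were higher and 0 lower. For this and the next 2 lists, the shares over all features were 19.6% higher and 18.8% lower. The origin recognition genes orc-2 and orc-1 lay at 1.40 ± 0.08 and 1.32 ± 0.19 and the helicase loader gene cdc-6 at 1.03 ± 0.53. Mitotic kinases and the spindle checkpoint gave 4 higher and 0 lower among 9 measured genes, and the median of that list was 0.15. This median is unsteady, with array medians of 0.46, 0.43 and 0.40 and values of 0.21 to 0.32 when 1 array was left out (0.32 without array 1, 0.21 without array 2 and 0.26 without array 3) and 0.26 with array weights. The Polo-like kinase genes plk-1 and plk-3 lay at 1.75 ± 0.27 and 1.53 ± 0.16 and the Aurora A kinase gene air-1 at 0.91 ± 0.20. Among RNA-binding regulators of germ cells, 7 of 7 measured were higher, with a median of 1.53. gld-1, which represses translation of cye-1 mRNA in the germ line, led at 2.26 ± 0.05. The KH-domain gene mex-3 lay at 2.09 ± 0.47, and lin-41, known for holding back oocyte maturation, at 1.70 ± 0.47.

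Further cyclins and kinases of the same families, with some of their activators, were also examined. Of 6 other cyclins, 2 were higher, the transcription elongation cyclin T gene cit-1.1 at 0.83 ± 0.36 and the cyclin Y gene cyy-1 at 0.46 ± 0.15. cyy-1 was near the threshold (limma adjusted p = 0.0479) and was not called when any 1 array was left out. Of 9 other CDKs, CDK-like kinases and their activators, 5 were higher and 2 lower. Both counts stand beside 19.6% of all features called higher and 18.8% lower. mnat-1, the assembly factor of the CDK-activating kinase, was higher by 2.46-fold, with log2 ratios of 1.21, 1.23 and 1.46. The genes that were lower were cdka-1, the activator of the neuronal kinase CDK-5, at −1.70 ± 0.25, and the ciliary kinase gene cdkl-1 at −0.99 ± 0.34. The kinase gene cdk-5 itself went the other way and was higher, at 0.88 ± 0.15 (limma adjusted p = 0.00289). Neuron markers were lower in 3 of 4 measured genes (median −1.93), beside the lower cdka-1 and cdkl-1. The part of neurons in these values was not tested. The kinase count was 3 higher without array 2 and 3 higher without array 3.

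Over all these lists, 68 of 84 genes were measured. Of these, 40 passed upwards and 3 downwards, beside 19.6% of all features called higher and 18.8% lower, and their median log2 ratio was 0.67, beside 0.04 over all features. Both figures include the 7 measured RNA-binding regulators of germ cells, all 7 higher with a median of 1.53, and are raised by them. For the 8 core cyclin and CDK genes the median was 0.12. The list of RNA-binding regulators and that of oocyte markers share oma-2. No test set the lists against each other or against other genes, and they were drawn up with results of these arrays known.

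**Figure D4:**
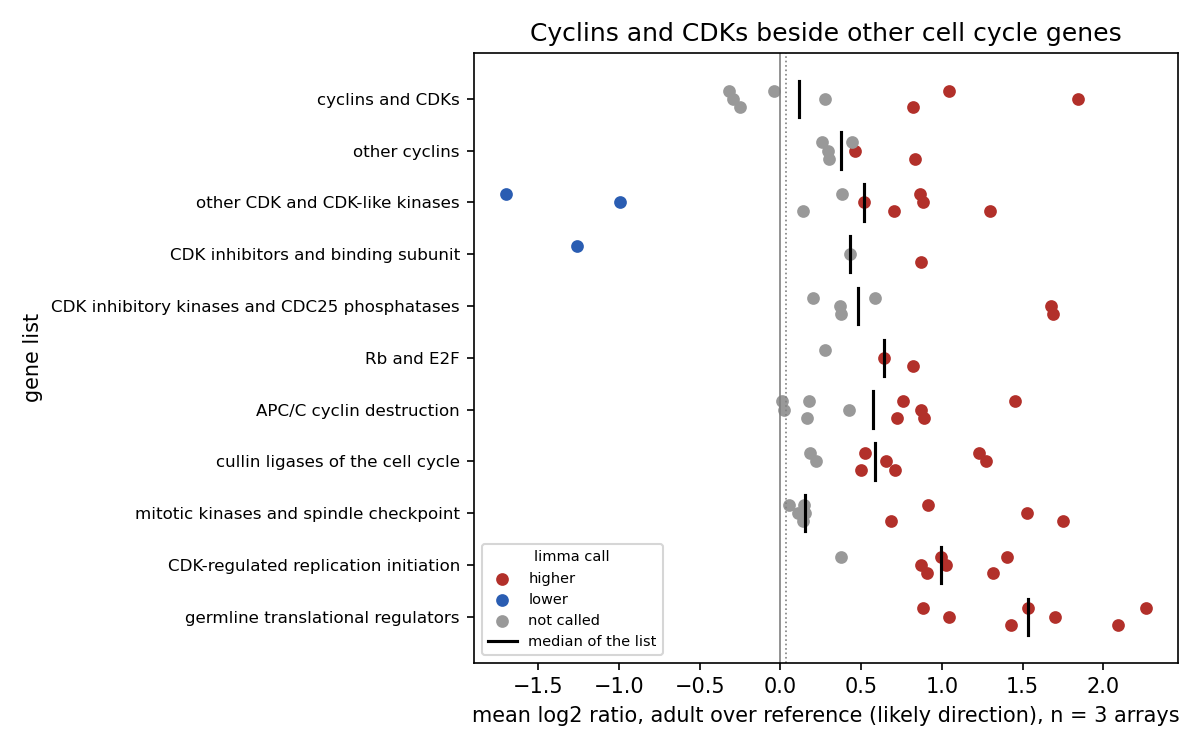
Mean log2 ratio (n = 3 arrays) of each measured gene, by list, coloured by the limma call, with the list median as a black bar. The solid grey line marks 0 and the dotted line the median of all features, 0.04. The core cyclins and CDKs in the top row spread to both sides of 0, and the blue points are cdka-1, cdkl-1 and cki-1.

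The named genes with the profile most like cdk-1 were found by Euclidean distance over the 3 arrays among 15073 other named genes. They were the annexin gene nex-1 at a distance of 0.07, C44C10.3 at 0.10, the acyl-CoA binding protein gene acbp-1 at 0.10, the chemoreceptor gene str-9 at 0.15 and sams-5, an S-adenosylmethionine synthetase gene, at 0.16. None of these belongs to the cell cycle lists, and 3 arrays of 1 group give little ground for likeness. Nearest to the median profile of the 8 genes were mel-26, T22C8.4, H14A12.5, sex-1 and ZK185.1, at 0.02 to 0.05, but 308 genes lay within 0.2 of that profile, which is close to 0 on every array.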

How the data were processed

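RNA of 3 preparations of late young adults was measured on 3 arrays with 2 channels each. As deposited, a probe has 1 log2 ratio on each array. This unit was inferred from the numbers: taken as powers of 2, 99.98% of them fell on multiples of 0.001, with a tolerance of 0.01 of a step. The authors' background correction, normalization and filters are not given in the sources used. Array medians over probes were 0.05, 0.01 and 0.02.

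Of 20000 probes, 15655 had 1 symbol, 198 several and 4147 were not listed. Names came from the platform annotation, updated by gene identifier (15569 probes) or accession (7) through a RefSeq table of WBcel235, which was used for names only. Probes of a symbol were averaged per array. The 19264 features with a value on all 3 arrays entered an intercept model in limma 3.58.1 (R 4.3.3), with eBayes moderation, a two-sided test of the mean against 0 and Benjamini-Hochberg adjustment; the reference's own spread does not enter, and an effect of the channel cannot be told from a difference. The procedure was also run on simulated data. These were independent values with variances drawn from limma's own prior, so they do not show how it handles arrays that are not equally alike. Differences between members used an exact sign-flip permutation test.

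The members and lists were chosen with earlier results of these data known. All members are named; of each cell cycle list, the 3 genes with the largest absolute mean among those called, or all where 4 or fewer were measured; and the 5 genes nearest in profile. Genes of the marker lists are named as examples, chosen after their values were seen. The alternatives were array centring, scale and quantile normalization, array weights, a robust prior, single probes, other feature sets, no moderation and leaving out each array.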

Additional observations from a re-analysis of the deposited data

How the results depend on the processing

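The calls of cyb-3, cye-1 and cdk-1 held under every alternative run but 1. An unmoderated one-sample test, resting on 3 values a gene, gave the same mean log2 ratios of 1.84, 1.04 and 0.82 with adjusted p of 0.0840, 0.181 and 0.199. It called 0 of the 8 genes, 0 genes of the cell cycle lists in either direction and 0 of all features (smallest adjusted p = 0.0682), while 6188 features had an unadjusted p under 0.05, compared with 8985 in limma. By the other settings, all in limma, the adjusted p of cyb-3 ran from 1.05e-10 to 0.000951, that of cye-1 from 0.000339 to 0.0182 and that of cdk-1 from 0.00122 to 0.0267. Both ends of each range came from fits with 1 array left out. The lowest came without array 2 for cyb-3 and cdk-1 and without array 3 for cye-1. Resting on fewer arrays, these lowest values are not stronger evidence than the main fit, which gave 0.000148 for cyb-3. The other 5 genes kept their sign and were called under none of the settings. Among the pairs, cyd-1 minus cdk-4 lay between −0.23 and 0.06 with 1 array left out and changed sign, to 0.062, without array 3; no other pair changed sign. No paired analysis was possible because the series holds 1 group. The half-width of the moderated 95% interval had a median of 0.39 over all features, so smaller differences would mostly not be detected with 3 arrays.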
